A study of Mus musculus with 5 samples.

Results

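The nucleolar ribosome biogenesis genes described here are the genes of the deposited table whose symbols follow the families Nop, Utp, Rrp and Polr1, each with a number or subunit letter, together with Fbl, Ncl, Npm1, Rrs1, Nolc1 and Dkc1. The symbol rule found 33 genes among 19699 entries, and it used no measured value. RNA was sequenced from the main airway part, trachea and lung included, of mouse embryos of stage E13.5. The mutant group (2 libraries) lacked Prmt5, an arginine methyltransferase, in the lung epithelium, and the control group (3 libraries) carried the genotype label WT. The labels word the mutant genotype as a Prmt5 knockdown, whereas the growth protocol speaks of a knockout in lung epithelial cells of C57 mice. The design text names Shh, a signal gene of the airway epithelium, with Prmt5 in the mutant genotype, and neither the alleles nor the driver are spelled out. Per the same text the controls were littermates. A further treatment protocol in the labels describes fat cell differentiation in culture and names no tissue of this series. How many embryos went into a library is not in the labels. The p-values cover only the scatter between libraries, part of which may be technical.

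Ribosomes are assembled in the nucleolus. RNA polymerase I transcribes the long ribosomal RNA precursor there, small nucleolar ribonucleoproteins (snoRNPs) guide its chemical modification, the small subunit processome folds and cuts the part that becomes the small ribosomal subunit, and a further set of factors builds the large subunit. Growing embryonic tissue makes many ribosomes, and the genes of this machinery are active in nearly all dividing cells. All 33 genes were detected in all 5 libraries, and all 33 passed the filter of 1 FPKM or more in at least 2 libraries. FPKM, fragments per kilobase of gene, scaled by library depth, is a level that takes gene length into account. The smallest member count behind a value was 174 reads, for Utp23 in mutant replicate 2.

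Library depth was 15652503 to 18682463 reads. Prmt5 itself was at 23.7 and 20.1 FPKM in mutant libraries and at 28.7, 26.4 and 25.8 FPKM in control libraries, so that both mutants lay below all controls, but its log2 change of -0.29 did not pass (limma adjusted p = 0.234). Whole tissue also holds cells that keep the gene. All 10 epithelial and all 9 lung mesenchyme markers passed the filter. Markers of several cell types differed between the groups. These marker lists were chosen with earlier results of these data known. Rose and fell here mean a limma adjusted p under 0.05, which 2.36% of all genes tested reached. Of the muscle markers tested 6 of 7 fell (Myh3, Myod1, Myog, Myl1, Tnnt3 and Chrna1) and of the cartilage markers 4 of 4 fell (Col2a1, Col9a1, Col9a3 and Col11a1), with summed levels of 8.93 and 22.6 against 85.4 to 132 FPKM for the 9 muscle genes found, and 26.2 and 35.9 against 71.3 to 104 FPKM for the 7 cartilage genes found. Among 10 epithelial markers Foxa1 fell, 8 had a log2 change below 0 and 2 above, and the median was -0.64. Both mutants lay below all controls for 6 of the 10, where 24.4% of all genes tested did so. Their summed level was 305 and 306 FPKM in mutant libraries and 294 to 769 FPKM in control libraries. The 9 lung mesenchyme markers split, 5 above 0 and 4 below: Tbx4 and Wnt2 rose, while Col1a1, Col1a2 and Col3a1 had log2 changes of -0.37, -0.42 and -0.30 that did not pass, with both mutants below all controls. Their summed level was 1701 and 1416 against 1662 to 2161 FPKM. Of 4 mesothelium markers 0 passed, but both mutants lay above all controls for Upk3b, Lrrn4 and Wt1 (log2 changes 1.61, 1.40 and 1.22). Such an order held for 13.2% of all genes tested. Msln, the remaining marker, went the other way with overlapping groups (log2 change -0.56). It was at 0.120 and 0.786 FPKM in mutant libraries and 1.47, 1.10 and 0.753 FPKM in control libraries. The list summed to 63.5 and 92.6 FPKM in mutant libraries and 10.9, 49.2 and 32.0 FPKM in control libraries. Of 6 neural markers Ret and Tubb3 fell, at summed levels of 34.2 and 45.9 against 59.0 to 80.1 FPKM. The 8 proliferation genes had 0 calls and summed to 474 and 501 FPKM in mutant libraries and 397 to 484 FPKM in control libraries. Y-linked genes summed to 31.5 and 27.1 FPKM in mutant libraries and to 23.0, 18.9 and 4.49 FPKM in control libraries. What part cell make-up had in the values below was not tested. Some values are also given with a male share as a covariate, which is this Y-linked sum relative to the highest library. Both mutants had a higher sum than all controls, so effects of this covariate and of the genotype cannot be fully told apart. In whole tissue, fewer cells of a type and less RNA per cell cannot be told apart.

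Most of the machinery lay close to its control level. With limma on log2(FPKM + 1), 0 of 33 genes passed an adjusted p of 0.05, where 2.36% of the 12838 genes tested passed, so the members' share is near that background. An unadjusted p under 0.05 was reached by 3 of 33, Utp20, Nop10 and Rrp36, where 18.9% of all genes tested reached it. In 21 of 33 genes the group means differed by less than the SD of the controls. The log2 change was above 0 for 26 genes and below 0 for 7, from -0.08 for Utp23 to 0.50 for Utp20, with a median of 0.09 beside -0.06 for all genes tested. Of all genes tested, 38.9% lay above 0. Both mutants lay above all 3 controls for 7 of 33 genes, which are Utp20, Nop10, Rrp36, Fbl, Npm1, Polr1c and Dkc1. This held for 13.2% of all genes tested. Both mutants lay below all controls for 0 of 33, where 24.4% of all genes tested did so.

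**Figure D1:**
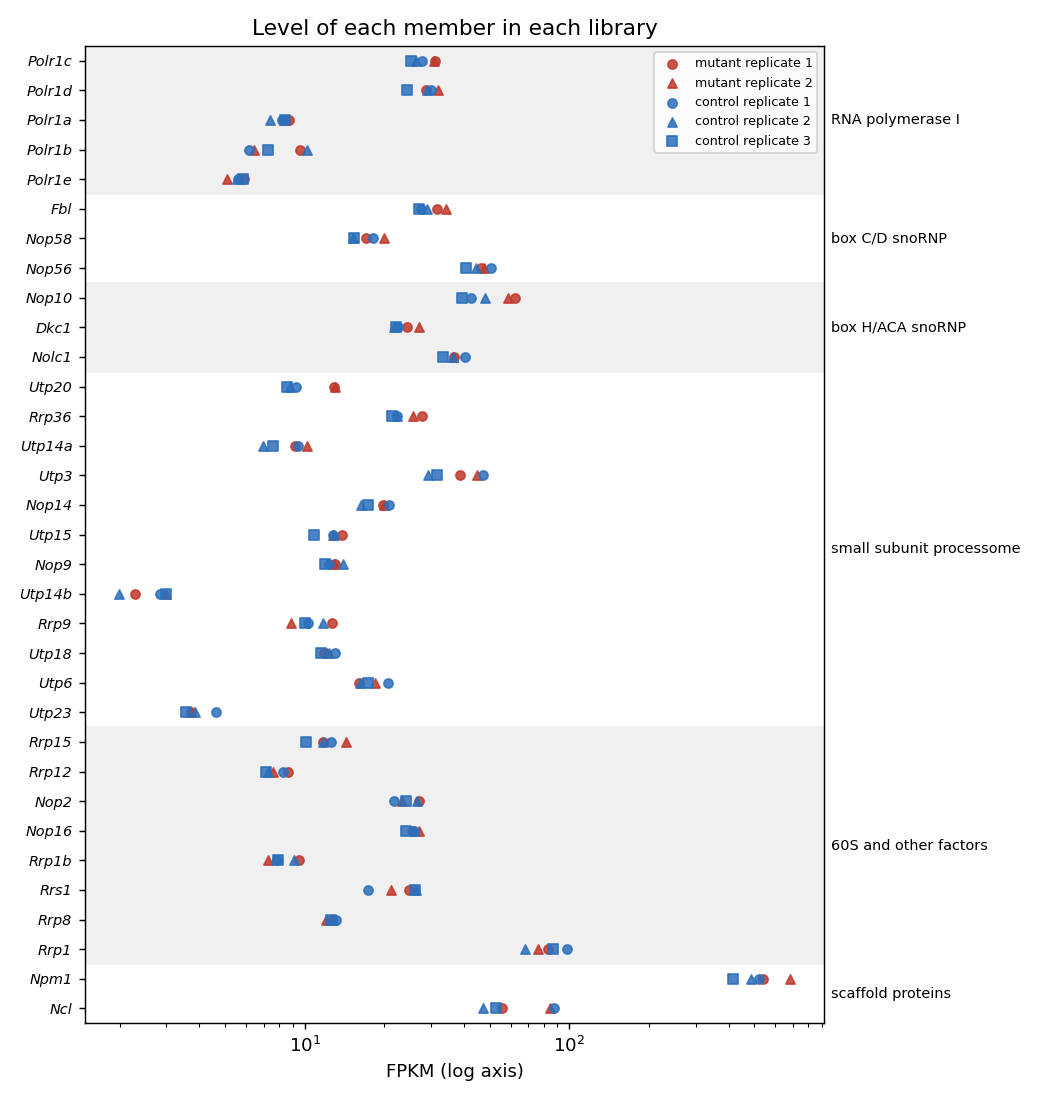
FPKM of each of the 33 genes (rows, grouped by role) in each library on a log axis, red for the 2 mutant and blue for the 3 control libraries. The levels run from 1.98 FPKM for Utp14b to 684 FPKM for Npm1, and the red and blue points lie apart for 7 genes, among them Utp20 and Nop10.

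The scaling of the libraries moved the signs of the small changes. Median ratio scaling and TPM multiply each library by a factor of its own. They therefore shift members and all genes nearly alike and cannot test the place of the members among all genes. Median ratio scaling put the median of all genes at 0.01 and left 32 of 33 members above 0, while TPM computed without the entry Gm23935, whose share of all FPKM in a library was 7.69% to 64.8%, put it at -0.13 and left 17 above 0. Counted against the median of all genes, 30 members lay above it as tested, 31 with median ratio scaling and 30 with TPM, quantile normalization or voom. The count was 27 without the filter on low values and 28 with the replicate number as a block. Leaving out 1 library gave 25 to 31. With the covariate for the male share it was 22. The median of the members was above the median of all genes by 0.14 as tested and by 0.05 with that covariate.

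Utp20 and Nop10 had the largest changes, and their promoters are shown as the windows of 250 bases before and 50 bases after the transcription start (RefSeq, GRCm38.p6, each on its gene's strand). Nop2, whose groups overlap (log2 change 0.06), is shown beside them because its window also holds the letters CACGTG, the E-box that Myc proteins are known to bind. Capitals mark CACGTG and CCGGAAG, a core that ETS factors are known to bind, on either strand. The windows lie at chr10:88826765-88827064 (minus strand) for Utp20, chr2:112261676-112261975 (plus strand) for Nop10 and chr6:125131633-125131932 (plus strand) for Nop2.
Utp20: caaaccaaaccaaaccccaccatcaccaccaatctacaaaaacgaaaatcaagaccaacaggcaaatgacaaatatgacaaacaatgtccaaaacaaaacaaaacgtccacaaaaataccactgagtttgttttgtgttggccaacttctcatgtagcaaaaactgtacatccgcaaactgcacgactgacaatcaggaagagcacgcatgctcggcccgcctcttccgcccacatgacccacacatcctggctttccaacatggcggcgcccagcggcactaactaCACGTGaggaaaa
Nop10: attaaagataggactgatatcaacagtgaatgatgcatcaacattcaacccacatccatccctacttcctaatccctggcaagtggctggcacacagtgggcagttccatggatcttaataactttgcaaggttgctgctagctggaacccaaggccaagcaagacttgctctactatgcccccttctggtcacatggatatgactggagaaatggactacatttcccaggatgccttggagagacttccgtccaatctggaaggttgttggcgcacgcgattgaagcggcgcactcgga
Nop2: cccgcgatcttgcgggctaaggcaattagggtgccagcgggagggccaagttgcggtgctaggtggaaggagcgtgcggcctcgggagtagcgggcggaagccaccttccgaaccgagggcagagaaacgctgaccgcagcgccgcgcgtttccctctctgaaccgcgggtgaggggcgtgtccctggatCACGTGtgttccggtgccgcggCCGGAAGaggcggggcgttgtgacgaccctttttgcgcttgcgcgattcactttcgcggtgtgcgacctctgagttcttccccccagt
The E-box lay 37 bases after the start in Utp20 and 60 bases before it in Nop2, and the Nop10 window held neither motif. Of the 27 members with a promoter in the table, 4 held CACGTG, which reads the same on both strands (Nop2, Utp14b, Utp18 and Utp20). That is 14.8%, beside 11.6% of 9478 tested genes with a promoter and 7.15% of all 32851 windows. CCGGAAG or its reverse complement stood in 8 of 27 (29.6%), beside 19.3% of the tested genes and 8.86% of all windows. These shares describe letters in a window and say nothing of binding.

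In the small subunit processome, Utp20 stood out. Utp20 (chromosome 10, 88746607 to 88826804, minus strand, GRCm38) encodes a very large scaffold protein of the small subunit precursor. It was at 12.9 and 13.0 FPKM in mutant libraries, from 1801 and 1800 reads, and at 9.24, 8.81 and 8.55 FPKM in control libraries, from 1524, 1268 and 1375 reads. These reads, also used by voom, are known only up to a shared factor, because the gene length did not come from the annotation. The mutants lay together and well above all controls, which differed among themselves by 1.08-fold. Its mean was 1.46-fold higher, at 13.0 ± 0.0557 (SD, n = 2) against 8.86 ± 0.349 FPKM (SD, n = 3), with a log2 change of 0.50 (SE 0.10). This missed the threshold with limma (adjusted p = 0.0562). It passed with median ratio scaling (adjusted p = 0.0394, where 2.27% of all genes passed), with quantile normalization (0.0483, 1.93%) and with voom on the reads (0.0198, 3.85%). With the male share as a covariate its adjusted p was 0.441 at a log2 change of 0.44. That share was higher in both mutants than in all controls. The exact permutation test, two-sided, gave p = 0.1 for Utp20, which is the lowest p that 2 against 3 libraries (10 splits) can give.

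Rrp36, a factor of the early cuts of the precursor (chromosome 17, 46666324 to 46674352), was at 27.8 and 25.6 FPKM in mutant libraries and at 22.4, 22.4 and 21.4 FPKM in control libraries. Both mutants lay above the narrow range of the controls, and the log2 change of 0.26 (SE 0.10) did not pass (limma adjusted p = 0.219). Utp14a, a cofactor of an RNA helicase, was at 9.17 and 10.2 FPKM in mutant libraries and at 9.47, 6.93 and 7.56 FPKM in control libraries, where control replicate 1 lay between the mutants. Utp14b, an intronless copy of Utp14a that lies within Acsl3 and is known for a role in sperm formation, was the lowest member, at 2.28 and 2.99 against 2.84, 1.98 and 2.99 FPKM. Utp14a lies on the X chromosome, like Dkc1, and the sex make-up of the libraries differed.

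Utp3 varied most in this group, at 38.6 and 44.7 FPKM in mutant libraries and 47.2, 29.3 and 31.7 FPKM in control libraries. Control replicate 1 held the highest value, above both mutants, while the other controls were lower than both. Its log2 change of 0.23 (SE 0.20) became -0.01 with the male share as a covariate. At the low end stood Utp23, a factor that helps to release a snoRNA from the precursor, at 3.71 and 3.72 against 4.60, 3.85 and 3.56 FPKM, which overlap. The other 6 genes of the processome had log2 changes from -0.07 for Utp6 to 0.13 for Nop14, with overlapping groups in each. They include Utp15 and Utp18, WD-repeat proteins, Rrp9, a protein of the snoRNP that pairs with the precursor, and Nop9, an RNA-binding protein. For Nop9 the annotation gives 29.9% of the exon bases to Cideb on the other strand as well. In Utp14a and in Utp23, 11.5% of the exon bases are likewise shared with a gene on the other strand. No source used here says whether counting used strand, so the levels of these genes are less certain.

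Among the box H/ACA snoRNP genes, whose particles turn uridine into pseudouridine, Nop10 had the largest change. Nop10 (chromosome 2, 112261926 to 112263269) encodes a very small core protein of the particle. It was at 62.2 and 58.4 FPKM in mutant libraries and at 42.5, 48.0 and 39.2 FPKM in control libraries. Both mutants were above every control, at a mean 1.39-fold higher, 60.3 ± 2.68 (SD, n = 2) against 43.2 ± 4.43 FPKM (SD, n = 3). With a log2 change of 0.47 (SE 0.12) it missed the threshold (limma adjusted p = 0.0863).

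Dkc1 (chromosome X, 75095854 to 75109777) encodes dyskerin, the pseudouridine synthase of the same particle and a part of telomerase. Its level was 24.3 and 27.0 FPKM in mutant libraries and 22.5, 21.7 and 22.1 FPKM in control libraries. The groups did not overlap, the controls lay within 1.04-fold of each other, and the log2 change was 0.20 (SE 0.10, limma adjusted p = 0.341). Nolc1, a chaperone of snoRNPs that shuttles to the nucleolus, was at 36.6 and 36.3 against 40.2, 36.4 and 33.4 FPKM, a ratio of 0.994. Gar1 and Nhp2, which complete the particle and lie outside the symbol rule, differed by 0.07 and 0.36 on the log2 scale (limma adjusted p = 0.843 and 0.189). Nhp2 was at 75.8 and 90.2 FPKM in mutant libraries and 64.3, 70.4 and 58.2 FPKM in control libraries, which do not overlap.

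The box C/D snoRNP genes encode the particle that adds methyl groups to ribose in ribosomal RNA. Fbl (chromosome 7, 28169710 to 28179269), the gene of the methyltransferase fibrillarin, was at 31.7 and 34.1 FPKM in mutant libraries and at 27.5, 29.0 and 27.0 FPKM in control libraries. Both mutants were above all controls, and the log2 change was 0.23 (SE 0.10, limma adjusted p = 0.268). Nop58, a core scaffold of the particle, was at 17.1 and 19.9 against 18.1, 15.2 and 15.4 FPKM. Nop56, its partner, was at 46.4 and 47.5 against 50.6, 44.4 and 40.7 FPKM. In both, control replicate 1 reached or passed a mutant, and the log2 changes were 0.18 and 0.06. Nop56 and Nop58 carry 5 and 4 annotated snoRNA genes within their bounds, Ncl 3 and Dkc1 1. The other 29 members carry 0.

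Among the 5 RNA polymerase I genes, Polr1c (chromosome 17, 46243920 to 46248054) alone had groups that did not overlap. Of all genes tested, 13.2% had both mutants above all controls. Polr1c and Polr1d encode subunits that the enzyme shares with RNA polymerase III. Polr1c was at 31.0 and 30.7 FPKM in mutant libraries and at 27.7, 26.4 and 25.3 FPKM in control libraries, with a log2 change of 0.21 (SE 0.10, limma adjusted p = 0.305). Polr1d was at 28.8 and 31.8 against 29.9, 28.9 and 24.4 FPKM, with control replicates 1 and 2 between the mutants. The catalytic genes were nearer to their controls. Polr1a, the largest subunit, was at 8.71 and 8.36 against 8.18, 7.36 and 8.44 FPKM.

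Polr1b, the second largest subunit, spread more within the groups than between them, at 9.56 and 6.42 FPKM in mutant libraries and 6.15, 10.2 and 7.29 FPKM in control libraries. Polr1e, a subunit that acts in initiation, was at 5.91 and 5.10 against 5.60, 5.56 and 5.83 FPKM. The 2 mutants stood at opposite ends of the range in Polr1e, and the log2 change was -0.04.

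**Figure D2:**
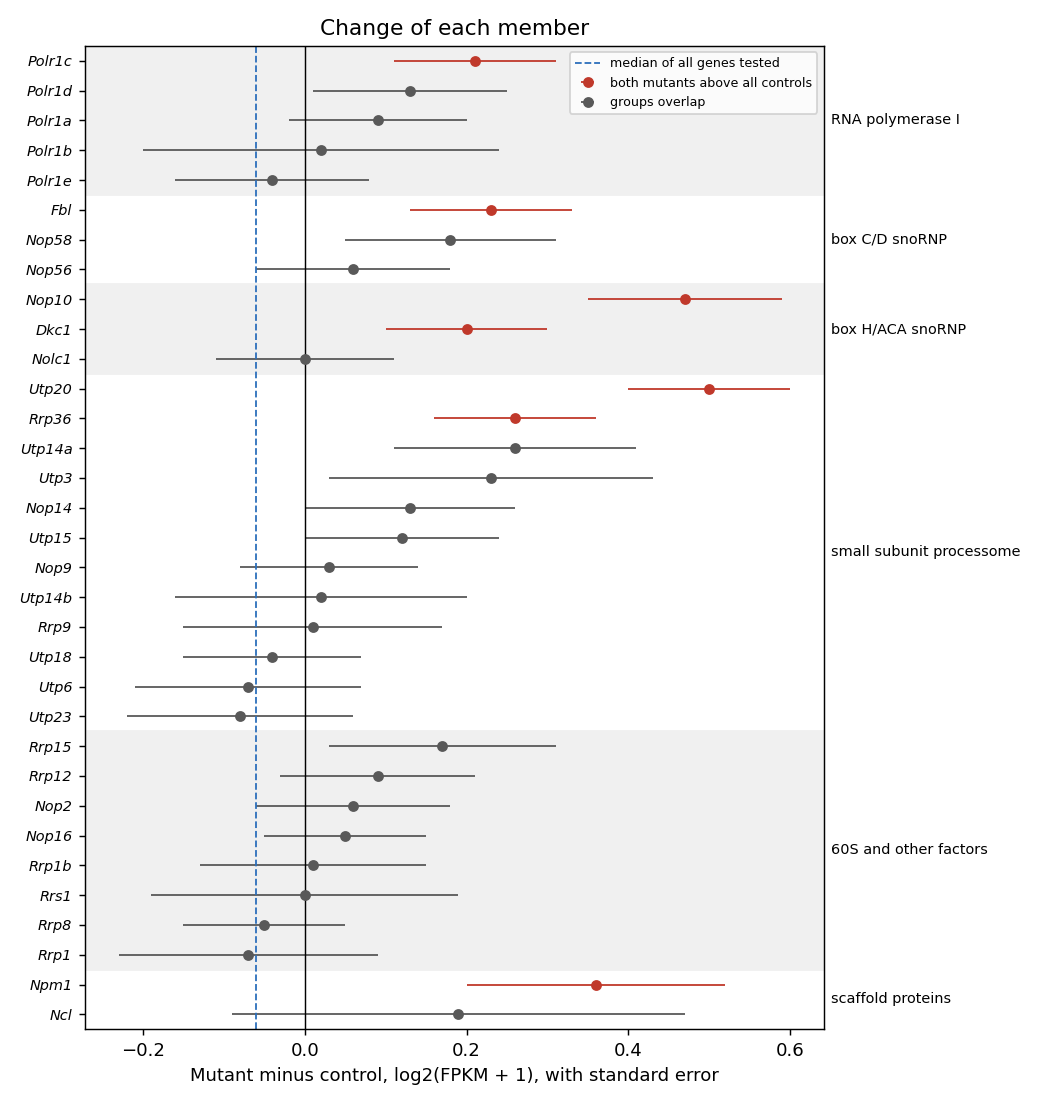
Log2 change of each of the 33 genes (mutant minus control, on log2(FPKM + 1)) with its standard error, grouped by role, red where both mutants lay above all controls. The points run from -0.08 for Utp23 to 0.50 for Utp20, and the dashed line marks the median of all genes tested at -0.06.

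The factors of the large subunit and other processing factors had the lowest median of the 6 roles, 0.03 over 8 genes and overlapping groups in each. Rrp15, a factor of the large subunit precursor, was at 11.7 and 14.3 FPKM in mutant libraries and 12.6, 11.7 and 10.1 FPKM in control libraries, with a log2 change of 0.17 (SE 0.14). Rrp12, which acts in the export of the precursors, was at 8.63 and 7.59 against 8.28, 7.24 and 7.14 FPKM. Rrp1 was the lowest in change, at 83.1 and 76.1 against 98.3, 68.1 and 86.7 FPKM, where the controls alone spanned 1.44-fold.

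Rrs1, which brings a small ribosomal RNA into the large subunit, was at 24.8 and 21.1 against 17.3, 26.3 and 26.0 FPKM, and control replicate 1 was the lowest of the 5. Nop2, a methyltransferase of ribosomal RNA, was at 27.1 and 23.4 against 21.8, 26.6 and 24.2 FPKM. Rrp8, another such methyltransferase, varied little, within 1.10-fold over all 5 libraries. Nop16 and Rrp1b had log2 changes of 0.05 and 0.01.

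The scaffold genes Npm1 and Ncl had the widest spread in FPKM. Npm1 (chromosome 11, 33152287 to 33163206) encodes nucleophosmin, which holds the outer layer of the nucleolus together. It was the most abundant member, at 538 and 684 FPKM in mutant libraries and 520, 487 and 414 FPKM in control libraries. Mutant replicate 1 lay just above control replicate 1 and mutant replicate 2 well above all others. The mean was 1.29-fold higher, at 611 ± 103 (SD, n = 2) against 474 ± 54.5 FPKM (SD, n = 3), and the log2 change of 0.36 (SE 0.16) did not pass (limma adjusted p = 0.282). It was 0.03 with quantile normalization, 0.19 with the male share as a covariate, 0.19 without mutant replicate 2 and 0.54 without mutant replicate 1. Of its transcript words of 30 bases, 29.7% also occur in transcripts of genes elsewhere, so reads may have been shared and its level is less certain. The same share was 22.6% for Nop56, nearly the same for Fbl, 16.6% for Rrs1 and 11.7% for Polr1d, and under 10% for the other members.

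Ncl encodes nucleolin, a protein that binds the ribosomal RNA precursor. It was at 55.9 and 84.8 FPKM in mutant libraries and at 87.7, 47.1 and 53.0 FPKM in control libraries. High values thus came from 1 library of each group, and the controls alone spanned 1.86-fold, the widest of the 33. Its log2 change was 0.19 (SE 0.28), or -0.11 without mutant replicate 2 and 0.46 without control replicate 1. Together the members took 0.427% and 0.495% of the reads in the mutants and 0.449%, 0.383% and 0.364% in the controls. Without Npm1 the shares were 0.283% and 0.313% against 0.311%, 0.254% and 0.254%. The groups overlap with and without Npm1.

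Beyond the symbol rule, 132 tested genes of 5 lists of the same machinery had counts near those of the members, with 0 calls, 101 above 0 and a median log2 change of 0.09. Both mutants were above all controls for 31 of the 132 (23.5%) and below them for 4 (3.03%). Of all genes tested, 13.2% and 24.4% were so. The largest change among the large subunit factors was that of Mak16, at 16.8 and 15.2 FPKM in mutant libraries and 11.4, 11.4 and 11.0 FPKM in control libraries (log2 change 0.47, SE 0.10, limma adjusted p = 0.0678). Of the processome lists Fcf1 and Mphosph10 differed by 0.33 and 0.30 on the log2 scale (limma adjusted p = 0.221 and 0.23). Among the partners of RNA polymerase I, Ubtf, which opens the ribosomal genes for transcription, and Rrn3, its initiation factor, had log2 changes of 0.03 and 0.13. Rpp25, a protein of ribonuclease P and its relative that cuts ribosomal RNA, was at 4.43 and 4.46 against 0.676, 2.60 and 2.53 FPKM (adjusted p = 0.168).

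By list, the counts above 0 were 12 of 15 for the polymerase I partners, 27 of 38 for the other small subunit factors, 34 of 43 for the large subunit factors, 10 of 13 for the other snoRNP proteins and 18 of 23 for the exosome and nucleases. The Myc family, transcription factors known to drive many genes of ribosome assembly, had 0 calls of 11. Myc was at 30.6 and 26.3 FPKM in mutant libraries and 15.1, 25.2 and 23.3 FPKM in control libraries (adjusted p = 0.32). Mycn was at 13.4 and 13.2 against 10.7, 12.5 and 7.99 FPKM (adjusted p = 0.339). Mycl went the other way, at 3.63 and 3.69 against 12.6, 6.52 and 8.85 FPKM, and missed the threshold (log2 change -1.10, SE 0.23, adjusted p = 0.057).

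Set beside related groups in the same fit, the members held a middle place. All 76 cytosolic ribosomal protein genes, which encode the proteins of the finished ribosome, were above 0, with a median log2 change of 0.44 and 1 call, Rpl39 (log2 change 0.77, SE 0.15, limma adjusted p = 0.0485). Both mutants were above all controls for 69 of the 76, beside 7 of the 33 members and 13.2% of all genes tested. The 76 mitochondrial ribosomal protein genes had a median of 0.16, 66 above 0 and 0 calls. The 11 genes of RNA polymerase III subunits that are not shared with polymerase I had a median of -0.06 and 5 above 0, near all genes. Polr2e, Polr2f, Polr2h, Polr2k and Polr2l encode subunits of both enzymes and were counted with the polymerase I partners. Their log2 changes were 0.10, 0.27, 0.29, 0.24 and -0.04. These counts and medians are descriptions, and the differences between the groups were not tested.

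**Figure D3:**
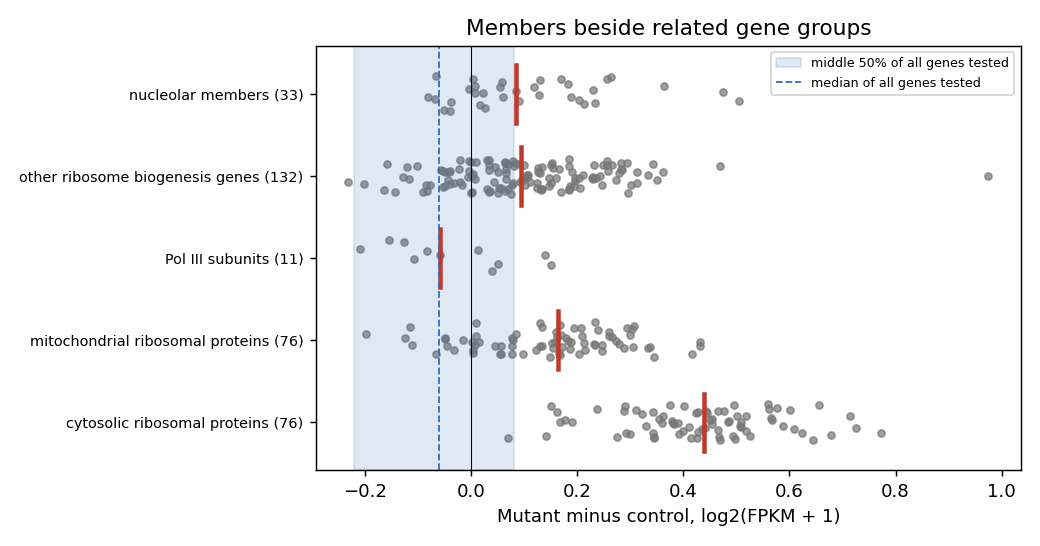
Log2 change of each gene (grey points) in the members and related groups, with the median of each group as a red bar and the middle 50% of all genes tested in blue. The medians are 0.09 for the members, 0.09 for other ribosome biogenesis genes, 0.16 for mitochondrial and 0.44 for cytosolic ribosomal proteins. The median is -0.06 for Pol III subunits, without those shared with polymerase I.

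**Figure D4:**
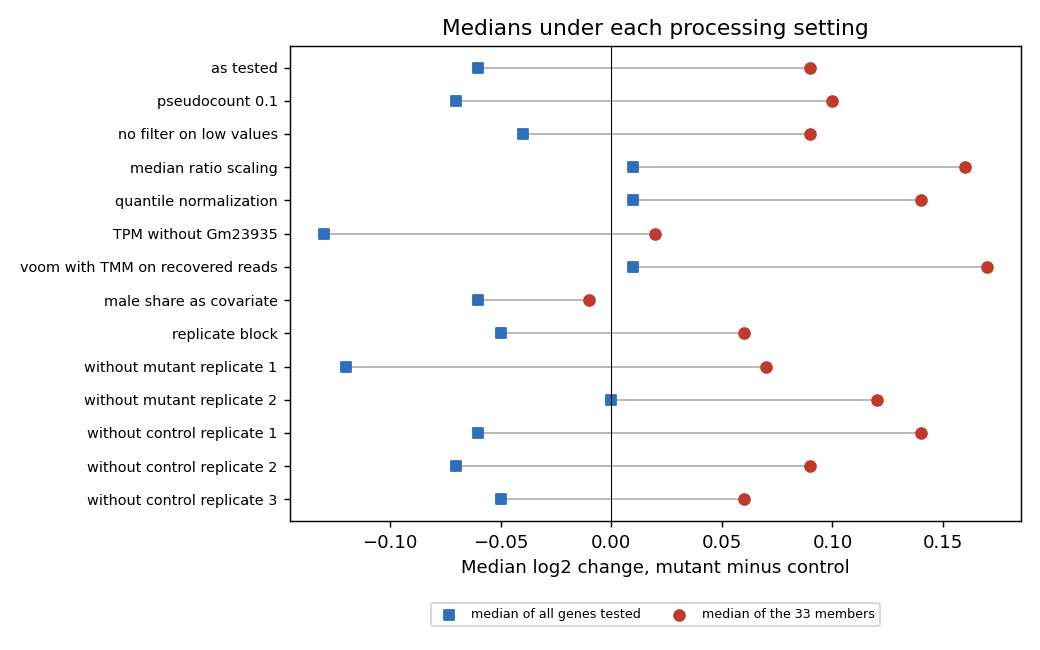
Median log2 change of the 33 members (red) and of all genes tested (blue squares) under each processing setting. The members' median lay above that of all genes in every setting shown, by 0.14 as tested and by 0.05 with the male share as a covariate.

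Read counts of the members were 174 or more in each library, and the controls of a member spanned a median of 1.20-fold. A member that did not pass is not thereby shown to be equal in the groups.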

How the data were processed

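The authors deposited FPKM values of 19699 gene entries for 5 libraries in 1 table, whose name gives the unit. The build GRCm38 (mm10) is per the submitters' processing notes. Not given in the sources used here are the aligner, counter, annotation and filters, nor whether strand was used. Per the labels' protocols, libraries were made from total RNA with a SMARTER mRNA kit. Groups and replicate numbers came from the sample titles.

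Whole reads came from the step that 1 read makes in each gene's values (100% of entries whole at a relative tolerance of 1e-10). Gene lengths equalled the summed exon length of GENCODE M21 for 23 of the 33 members and came from the steps for the other 10, so those reads are known up to a shared factor.

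The test was limma 3.58.1 (R 4.3.3; lmFit and trended eBayes, two-sided) on log2(FPKM + 1), without covariates, for the 12838 genes that reached 1 FPKM in 2 or more libraries. Benjamini-Hochberg adjustment ran over all of them, at a threshold of 0.05. Fold changes on this scale understate those of low genes. Means are of FPKM. The steps were tested on simulated reads, where most of the smallest changes were missed and more calls were false than the threshold allows. Members and lists were chosen with earlier results of these data known. All members are named. Per-library values are given for genes whose groups do not overlap, for the 2 smallest p-values and the highest and lowest change of each role, and for Utp14a, Utp14b, Utp3, Polr1a, Polr1b, Rrs1 and Nop2, which were added after their values were seen. Of the other pathway lists, genes past the threshold were to be named. There were 0 in the pathway lists, so Mak16, Fcf1, Mphosph10, Ubtf, Rrn3, Gar1, Nhp2, Rpp25, Myc, Mycn and Mycl were named after their values were seen. Marker lists not given with the results were those of heart muscle, endothelium, macrophages and red blood cells, with 0 calls each and median log2 changes of -0.55, -0.05, 0.21 and -0.05 in that order. Word sharing and promoter motifs were computed with Python 3.11.15 from GENCODE M21 transcripts and RefSeq promoters.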

Additional observations from a re-analysis of the deposited data

How the results depend on the processing

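In the 13 alternatives 0 members passed except Utp20, for which 1 member was called, higher, with median ratio scaling, with quantile normalization and with voom. The adjusted p of Utp20 ran from 0.0198 to 0.441 over all settings, at a log2 change of 0.44 to 0.63. The median of the members was 0.16 with median ratio scaling, 0.17 with voom, 0.02 with TPM without Gm23935 and -0.01 with a covariate for the male share, in place of 0.09. With that covariate 15 members lay above 0 and 18 below, in place of 26 and 7, and Utp3 and Polr1d turned to -0.01 and -0.06. Members within 1 SE of 0 changed sign more often, 11 members in all with the covariate and 6 with median ratio scaling, and their signs are no directions. The calls over all genes, 127 higher and 176 lower, became 40 and 29 without a filter and 20 and 35 with the covariate. Quantile normalization gave 115 lower, TPM without Gm23935 277 lower and voom 270 higher genes. Leaving out 1 library gave 1 to 120 higher and 3 to 164 lower genes, the fewest without a mutant, where the lone mutant is assumed to vary like the controls. It gave 0 members called and a members' median of 0.06 to 0.14. The cause of these shifts was not tested. With the replicate number as a block there were 97 higher and 162 lower genes, 0 members called and a members' median of 0.06. Deviations of same-numbered libraries correlated at -0.0671 and 0.0203. These values cannot show whether the numbers pair the libraries, because the mutants' correlations with each control were equal and opposite by construction. The number of libraries limits the precision, and the controls of Ncl, Polr1b and Utp3 spread more than the groups differed.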
